A study of Mus musculus with 14 samples.

Results

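The genes described here encode the subunits of the receptors for glutamate and GABA. They were chosen by symbol, as every AMPA (Gria), kainate (Grik), NMDA (Grin), delta (Grid) and metabotropic (Grm) glutamate receptor gene and every GABA-A alpha, beta, gamma, delta and epsilon (Gabr) and GABA-B (Gabbr) gene. This choice by symbol used no expression value, but it and the gene lists below were made with earlier results of these data known. The rule sought 42 symbols, of which 34 were among the 15119 genes of the expression table, 21 for glutamate and 13 for GABA. Counts cover all 34, and 30 are shown by name. Among the others, Grin3b, Grm4, Grm6, Grm8, Gabra6, Gabrd and Gabre had no row in that table and were not analysed here.

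Glutamate and GABA are the main excitatory and inhibitory transmitters of the hippocampus. AMPA, kainate and NMDA receptors are cation channels that glutamate opens, metabotropic glutamate receptors and GABA-B receptors signal through G proteins, and GABA-A receptors are chloride channels usually assembled from alpha, beta and gamma subunits. In the adult dentate gyrus, where granule neurons are born throughout life, GABA reaches precursor cells and newborn neurons before glutamatergic synapses form, and it depolarises them while their internal chloride is high. Through such receptors a precursor cell can sense the activity of the network around it, and glia and vascular cells carry receptor subunits of their own.

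The study sorted GFP-positive cells from the dissociated dentate gyrus of adult B6.Cg-Tg(Nes-EGFP)1Yamm mice, in which regulatory elements of Nestin drive the green fluorescent protein, and divided them by their fluorescence with dihydroethidium, a dye that reports reactive oxygen species (ROS). RNA sequencing was done on 5 libraries of the lowest class (ROS+), 5 of the middle class (ROS++) and 4 of the highest class (ROS+++). All 3 classes share the transgene and the strain, the mice had standard housing, and no treatment was given. The labels do not give the age beyond adult or the sex, nor whether libraries came from separate animals or pools, and every p-value given is set against the spread from library to library, part or all of which may be technical.

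Values are CPM, a gene's reads divided by the library's total reads and multiplied by 1000000. A change is the difference between class means of log2(CPM + 1), given with its standard error, and understates the change of genes near or under 1 CPM. Class means are given with the SD over the 5 ROS+, 5 ROS++ and 4 ROS+++ libraries, in that order wherever 3 means follow each other. A gene was called where the adjusted p of the moderated test (limma, Benjamini-Hochberg over the 15102 genes tested) was under 0.05, and all 34 members were tested. Any pair of comparisons shares the libraries of 1 class, so the comparisons are not independent of each other. Gene spans are those of GENCODE M21 on the mouse build GRCm38. In sorted bulk samples, fewer cells of a type and less RNA per cell cannot be told apart.

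Libraries held 12704227 to 25313902 reads, the fewest in the 4th ROS+++ library, so that 3 reads correspond to between 0.119 and 0.236 CPM. Summed over 10 marker genes, the neuroblast and immature neuron list ran from 14370 to 19900 CPM in ROS+, from 1831 to 3615 in ROS++ and from 89.3 to 466 in ROS+++. Radial glia-like stem cell and astrocyte markers summed to between 1087 and 1726, between 5259 and 7890 and between 2323 and 6784 CPM in the same order. Oligodendrocyte precursor markers held 2242 to 3225 CPM in ROS+ and 2225 to 4208 in ROS++ but 482 to 769 in ROS+++, where Cspg4, which mural cells also carry, made up 472 ± 44.1 CPM (SD, n = 4). Markers of mural cells, the pericytes and smooth muscle of vessels, rose from between 200.5 and 681 CPM in ROS+ to between 7205 and 21570 in ROS++ and between 47970 and 55330 in ROS+++, and microglia and macrophage markers from at most 13.1 CPM in ROS+ to between 627 and 1457 and between 449 and 1809 CPM. No gene of these lists was at or under 3 reads in every library of the ROS+ class, or in every library of the ROS+++ class. The sort used GFP and dye alone as its criteria, and in every ROS++ and every ROS+++ library the mural sum was above the neuroblast sum. Of the other lists, 7 of 7 microglia and macrophage, 1 of 5 endothelial, 0 of 5 myelinating oligodendrocyte and 0 of 4 intermediate progenitor markers were higher in ROS+++ than in ROS+, and 0, 0, 2 and 3 were lower. Over all genes tested, 19.2% were higher and 40.0% lower there, shares near those of the endothelial markers called higher and the myelinating markers called lower. The part of these cell types in the receptor changes below was not tested.

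The promoters of 22 of the 34 members were listed by RefSeq for GRCm38.p6, in 27 windows that run from 250 bases before to 50 bases after an annotated start. Bases upstream of the start are printed for Gria2, the member with the most reads per kilobase in ROS+, for Grm3, which held that place in ROS+++, and for Grm2, which is the other gene of the same receptor group as Grm3 and changed in the opposite direction. Each is written 5′ to 3′ on the gene's own strand, which is the minus strand for all 3, and capitals mark the motif named after it.
Gria2, chr3:80802836-80803085: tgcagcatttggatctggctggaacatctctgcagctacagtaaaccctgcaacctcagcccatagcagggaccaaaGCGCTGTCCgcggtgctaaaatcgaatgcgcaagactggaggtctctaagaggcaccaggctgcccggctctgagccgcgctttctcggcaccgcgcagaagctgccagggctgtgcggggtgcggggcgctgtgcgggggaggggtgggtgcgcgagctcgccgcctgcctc
Grm3, chr5:9725353-9725602: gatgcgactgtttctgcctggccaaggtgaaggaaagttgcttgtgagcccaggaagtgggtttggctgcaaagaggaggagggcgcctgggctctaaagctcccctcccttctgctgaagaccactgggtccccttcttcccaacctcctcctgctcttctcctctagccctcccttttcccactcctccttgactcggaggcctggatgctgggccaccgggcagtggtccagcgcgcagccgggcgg
Grm2, chr9:106656110-106656359: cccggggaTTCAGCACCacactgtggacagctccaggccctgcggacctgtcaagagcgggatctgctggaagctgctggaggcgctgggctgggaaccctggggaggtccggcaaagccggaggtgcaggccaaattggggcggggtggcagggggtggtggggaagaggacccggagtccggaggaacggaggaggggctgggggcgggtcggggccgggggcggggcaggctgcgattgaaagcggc
Capitals in Gria2 are the reverse complement of GGACAGCGC and those in Grm2 are TTCAGCACC, the right and left arms of the element that the repressor REST is known to bind at neuronal genes. GGACAGCGC was found in 1 of the 27 member windows (3.7%) and in 0.405% of 32851 promoter windows of the genome, and TTCAGCACC in 1 of 27 and in 0.371%. The window of Grm3 held none of the motifs searched. Both strands were searched in each window.

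Motifs known for activity-dependent and neuronal transcription were searched in the same windows. The full cAMP response element TGACGTCA was in 0 of 27 member windows and in 1.79% of all windows. Its shorter form TGACG, which lies within the full element, was in 3 of 27 (11.1%, in Gabrb2, Grik2 and Grin1) and in 20.8% of all. The E-box CAGCTG was in 0 of 27 against 16.3% of all, and CAGATG in 1 of 27 (3.7%, in Gabra5) against 17.2%. These matches describe letters in short windows only.

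Receptor subunits fell as a group along the ROS classes, and a small set went the other way. Summed over the 34 members, the level was 2566 ± 72.1 CPM in ROS+ (SD, n = 5), 1507 ± 317 in ROS++ (n = 5) and 572 ± 206 in ROS+++ (n = 4), and the ranges of the 3 classes did not overlap. Between ROS+ and ROS++, 14 members were called, 12 lower and 2 higher (Grm3 and Gabrb1). Over all genes tested 29.6% were called, 13.2% lower and 16.4% higher, and the members' median change was -0.48 against -0.03 over all genes. Between ROS+ and ROS+++, 29 members were called, 25 lower and 4 higher (Grin2c, Grm3, Grm7 and Gabrb1), where 59.2% of all genes were called, 40.0% lower and 19.2% higher. The members' median change there was -2.94 and that of all genes -0.44. Between ROS++ and ROS+++, 24 members were called, 20 lower and 4 higher (Grin2a, Grin2c, Grm3 and Grm7), with 39.1% of all genes called, 29.2% lower and 9.89% higher, and median changes of -1.83 and -0.34. Other scalings moved the all-gene median of the change from ROS+ to ROS+++ to between -0.17 and -0.04 and raised the share of higher genes among all calls from 32.5% to between 43.9% and 50.6%, while among the members 4 were higher and 24 lower with each of those 3 scalings.

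Libraries of the classes did not overlap for 13 members between ROS+ and ROS++ (23.0% of all genes), for 25 between ROS+ and ROS+++ (50.0%) and for 20 between ROS++ and ROS+++ (27.0%). The test over all 3 classes called 30 of the 34 members, where it called 61.5% of all genes. Grik5, Grin2d, Gabrg3 and Gabbr1 did not pass it. Among the 30, class means fell in order from ROS+ over ROS++ to ROS+++ for 17, which is also the most frequent order among all genes called (44.8%). Below, the first step is the change from ROS+ to ROS++ and the second that from ROS++ to ROS+++. The fall came at different steps. For 14 members only the second step was called, as a fall from ROS++ to ROS+++, for 5 (among them Grin1, Grm2, Gabra2 and Gabra5) only the first, and for 6 (Gria1, Gria2, Grik2, Grik4, Grin2b and Gabrb2) both. Whether the steps of a gene differ in size was not tested.

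**Figure D1:**
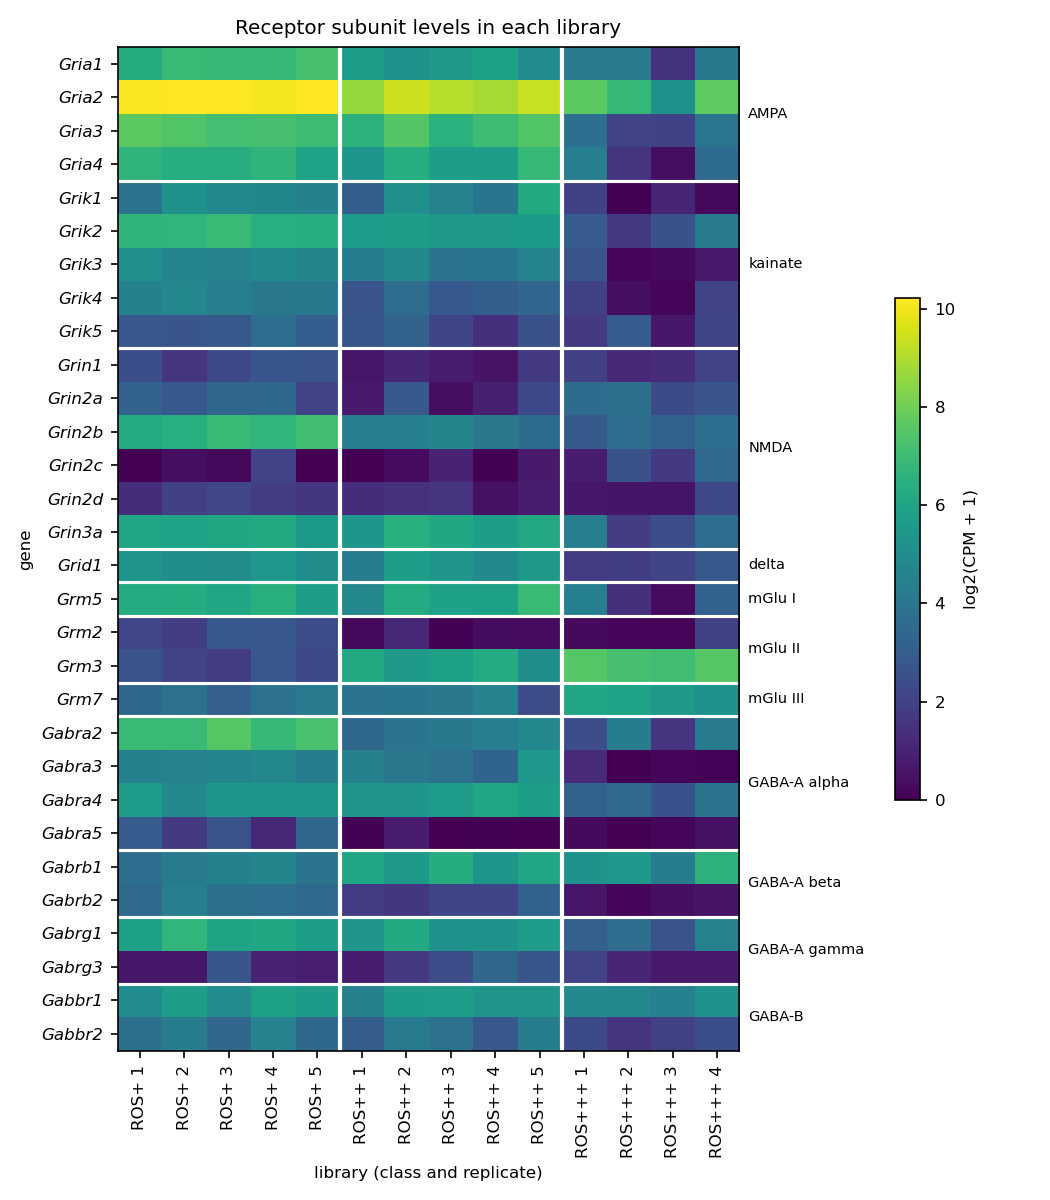
Level of 30 receptor subunit genes (rows, grouped by receptor type) in each of the 14 libraries (columns, grouped by ROS class), as log2(CPM + 1) by colour. Most rows darken from left to right, and Gria2 is the brightest row in ROS+. The rows of Grm3 and Grm7 are each brighter in the 4 ROS+++ libraries than in the libraries of the other classes.

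**Figure D2:**
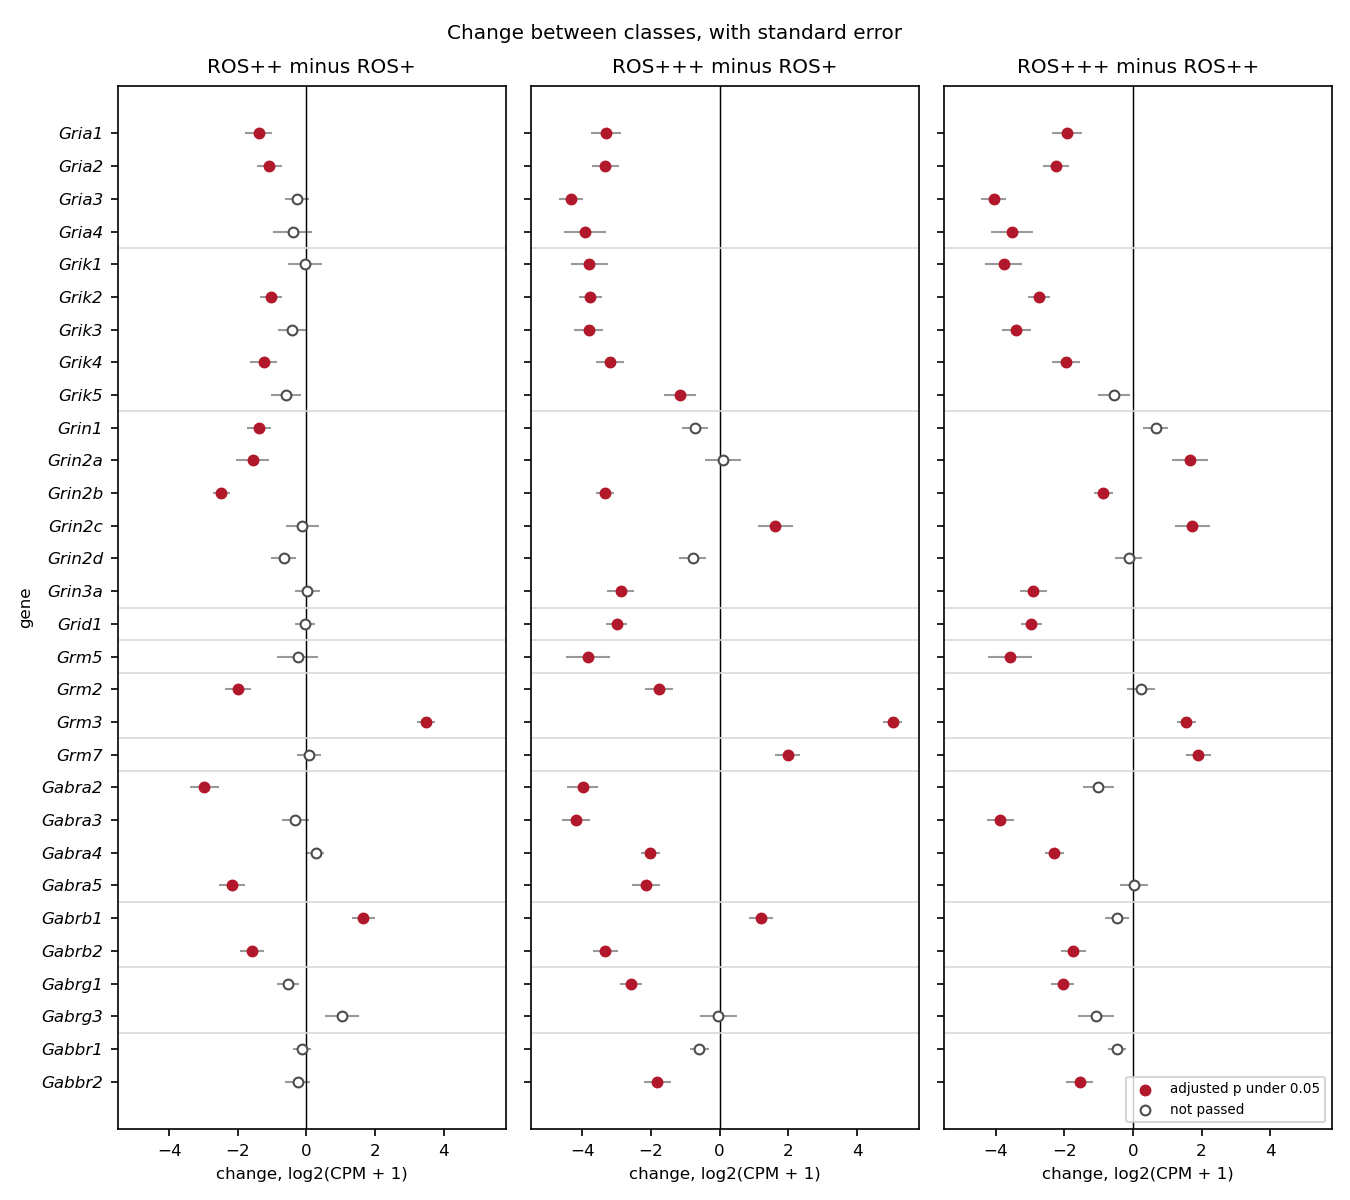
Change of 30 members between classes on the log2(CPM + 1) scale (points) with its standard error (bars), filled where the adjusted p was under 0.05. Of these 30 members, 11 were called lower and 2 higher in ROS++ than in ROS+, 21 lower and 4 higher in ROS+++ than in ROS+, and 17 lower and 4 higher in ROS+++ than in ROS++.

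All 4 AMPA receptor genes fell between ROS+ and ROS+++, Gria1 and Gria2 at both steps and Gria3 and Gria4 at the second step. Over all genes tested, 40.0% were lower in ROS+++ than in ROS+. AMPA channels carry most fast excitatory transmission, and channels that hold the edited Gria2 subunit pass little calcium. Gria2 (ENSMUSG00000033981, chr3:80681450-80802835, minus strand) stood at 1119, 1175, 1197, 1079 and 1186 CPM in the 5 ROS+ libraries. It held 393, 703, 537, 477 and 654 CPM in the 5 ROS++ libraries and 198, 111, 37.3 and 203 CPM in the 4 ROS+++ libraries. It was 2.08-fold lower in ROS++ and 8.38-fold lower in ROS+++ than in ROS+, and no library of one class overlapped another class. Its changes were -1.09 ± 0.36 (adjusted p = 0.037), -3.33 ± 0.38 (adjusted p = 5.73e-06) and, from ROS++ to ROS+++, -2.24 ± 0.38 (adjusted p = 0.000438). The first of these lost its call when any of 8 single libraries was left out, each of the 5 of ROS+ and the 1st, 3rd and 4th of ROS++, with adjusted p of up to 0.0876 over all alternatives and a change of between -1.18 and -0.97.

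Gria3 (ENSMUSG00000001986, chrX:41400854-41678601, plus strand) stood at 197, 175, 144, 147 and 127 CPM in the 5 ROS+ libraries. It held 95.2, 181, 90.7, 132 and 173 CPM in the 5 ROS++ libraries and 12.4, 3.34, 3.05 and 15 CPM in the 4 ROS+++ libraries. The ROS+ and ROS++ libraries overlapped and the 4 ROS+++ libraries lay below all of them. Its change from ROS+ to ROS++ was -0.27 ± 0.34 (adjusted p = 0.586) and did not pass, while ROS+++ fell below ROS++ by 4.05 ± 0.36 on the log2 scale (adjusted p = 2.39e-07), 15.9-fold in mean CPM. Gria4 followed the same course, with means of 84.4 ± 15.7, 67.1 ± 28.8 and 8.24 ± 9.06 CPM in ROS+, ROS++ and ROS+++, and was highest among the ROS+++ libraries in the 1st (19.9 CPM) and lowest in the 3rd (0.286). Leaving out these libraries moved its change from ROS+ to ROS+++ from -3.93 to -4.57 without the 1st and to -3.23 without the 3rd, and that from ROS++ to ROS+++ from -3.53 to -4.17 and -2.83. Gria1, a subunit of calcium-permeable and of mixed channels, fell, with means of 115 ± 25.8, 43.4 ± 10.6 and 13.4 ± 7.72 CPM in ROS+, ROS++ and ROS+++. Its level of 1.81 CPM in the 3rd ROS+++ library stood apart from 16.7 to 17.6 CPM in the other 3, and without that library its changes went from -3.32 to -2.64 against ROS+ and from -1.92 to -1.25 against ROS++, both still called.

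Per kilobase of exon, Gria2 was the highest of all members in ROS+, at 74.0 ± 3.26 CPM per kb, and in ROS++, at 35.6 ± 8.16. In ROS+ Gria1 came next at 19.1 CPM per kb, followed by Gabra2 at 18.1 and Gria3 at 16.0. This order depends on the length used, since per kilobase of the longest transcript Gria3 stood at 30.4 and Gria1 at 20.8, with Gabra2 between them and Gria2 still first. Within the AMPA genes Gria2 held 60.4% ± 1.49 of the level per kb in ROS+, 53.0% ± 3.39 in ROS++ and 69.4% ± 6.49 in ROS+++ (SD, n = 5, 5 and 4).

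Kainate receptors modulate transmitter release and slow excitatory currents, with Grik1, Grik2 and Grik3 as low-affinity and Grik4 and Grik5 as high-affinity subunits. All 5 genes fell between ROS+ and ROS+++, where 40.0% of all genes tested were lower, and all but Grik5 by a change beyond -3. Grik2 (ENSMUSG00000056073, chr10:49094833-49788766, minus strand) stood at 102, 104, 119, 83.1 and 82.4 CPM in the 5 ROS+ libraries. It held 48.8, 51.4, 43.8, 44.8 and 46.7 CPM in the 5 ROS++ libraries and 6.68, 2.31, 4.86 and 17.2 CPM in the 4 ROS+++ libraries. All ROS+ libraries were high, all ROS+++ libraries low, and no library of a class overlapped another class. Its changes were -1.03 ± 0.31 (adjusted p = 0.0186), -3.77 ± 0.33 (adjusted p = 3.29e-08) and -2.73 ± 0.33 (adjusted p = 6.2e-06), the first of which missed the threshold without the 3rd ROS+ library (adjusted p = 0.0512).

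Grik3 (ENSMUSG00000001985, chr4:125490700-125714173, plus strand) stood at 34.2, 23.5, 22.3, 27.6 and 24.2 CPM in the 5 ROS+ libraries. It held 19.3, 27, 14.3, 14.8 and 23.1 CPM in the 5 ROS++ libraries and 5.30, 0.0982, 0.191 and 0.630 CPM in the 4 ROS+++ libraries. Levels in ROS+ and ROS++ overlapped, and the ROS+++ libraries lay below both, the 1st of them at 5.30 CPM and the others at or under 0.63. From ROS+ to ROS++ the change was -0.42 ± 0.41 (adjusted p = 0.471), and from ROS++ to ROS+++ it was -3.40 ± 0.43 (adjusted p = 9.42e-06). Grik1 had means of 24.9 ± 8.52, 30.4 ± 26.1 and 1.06 ± 1.35 CPM in ROS+, ROS++ and ROS+++, with 2 of the 4 ROS+++ libraries at or under 3 reads. Grik4 fell at both steps, with means of 19.8 ± 3.78, 7.92 ± 2.44 and 1.69 ± 1.70 CPM in ROS+, ROS++ and ROS+++, though the first call was lost in 5 alternatives, among them leaving out the 2nd ROS+ library or the 1st or 3rd ROS++ library (adjusted p up to 0.16 over all alternatives). Grik5 was called lower in ROS+++ than in ROS+ (-1.14 ± 0.47, adjusted p = 0.043), and this call was lost in 13 of 26 alternatives, namely each of the 3 other scalings, the log2 values as deposited, sets of consecutive library numbers as a block, and leaving out any ROS+ library or the 1st, 3rd or 4th ROS+++ library, with changes from -1.61 to -0.61 over all alternatives.

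NMDA receptors need the Grin1 subunit in every channel, join it to Grin2 subunits that set the kinetics, and act as coincidence detectors that admit calcium. The 6 listed NMDA genes did not move together, and their median change from ROS++ to ROS+++ was 0.27. Grin2b (ENSMUSG00000030209, chr6:135713233-136173511, minus strand) stood at 76.7, 84.1, 122, 107 and 140.2 CPM in the 5 ROS+ libraries. It held 19.8, 19.6, 24.5, 15.9 and 11.2 CPM in the 5 ROS++ libraries and 6.49, 11.4, 8.14 and 12.2 CPM in the 4 ROS+++ libraries. Grin2b, the Grin2 subunit that prevails in young neurons, was 5.81-fold lower in ROS++ and 11.1-fold lower in ROS+++ than in ROS+, with no overlap between ROS+ and the other classes, while ROS++ and ROS+++ overlapped. The changes were -2.48 ± 0.25 (adjusted p = 6.82e-07) and -3.34 ± 0.27 (adjusted p = 9.04e-09). From ROS++ to ROS+++ it changed by -0.86 ± 0.27 (adjusted p = 0.016), and this call was lost with each other scaling, with voom weights, with only these 2 classes in the fit and without the 1st ROS+++ library, with changes from -1.01 to -0.47 and adjusted p up to 0.17 over all alternatives.

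Grin3a (ENSMUSG00000039579, chr4:49661611-49845744, minus strand) stood at 64.7, 58.8, 67.3, 72.8 and 46 CPM in the 5 ROS+ libraries. It held 40.4, 88.8, 69, 52.8 and 70.9 CPM in the 5 ROS++ libraries and 19.6, 2.65, 4.29 and 11.8 CPM in the 4 ROS+++ libraries. Grin3a, whose product lowers the calcium permeability of NMDA channels, was the NMDA gene with the highest CPM averaged over the 3 class means, while Grin2b was higher in ROS+. ROS+ and ROS++ overlapped with a change of 0.02 ± 0.37 (adjusted p = 0.971), and all 4 ROS+++ libraries lay below both, with a change of -2.90 ± 0.39 (adjusted p = 1.61e-05) from ROS++.

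Grin1 itself was low, with means of 4.25 ± 1.48, 1.04 ± 0.777 and 2.18 ± 0.941 CPM in ROS+, ROS++ and ROS+++. It was called lower in ROS++ than in ROS+ (-1.38 ± 0.35, adjusted p = 0.00579) and did not pass between ROS+ and ROS+++ (-0.71 ± 0.37, adjusted p = 0.105). Antisense transcript Grin1os shares 13.5% of its exon bases, and the counting is not stated to use strand, so reads of the pair cannot be told apart. Grin2a, a Grin2 subunit of mature neurons, was lowest in ROS++, with means of 7.40 ± 2.73, 2.38 ± 2.58 and 8.33 ± 4.32 CPM in ROS+, ROS++ and ROS+++. Its fall from ROS+ to ROS++ (-1.57 ± 0.49, adjusted p = 0.0212) was lost in 5 leave-one-out fits (without the 3rd or 4th ROS+ or the 1st, 3rd or 4th ROS++ library, adjusted p up to 0.0607), and its rise from ROS++ to ROS+++ (1.66 ± 0.52, adjusted p = 0.0161) was lost without the 2nd ROS+++ library (adjusted p up to 0.0572). Grin2c, known from cerebellar granule cells and astrocytes, had means of 0.716 ± 1.34, 0.380 ± 0.423 and 4.56 ± 4.23 CPM in ROS+, ROS++ and ROS+++, was higher in ROS+++ than in ROS+ by 1.61 ± 0.51 on the log2 scale (adjusted p = 0.0114), and had 2 ROS+ and 2 ROS++ libraries at or under 3 reads. The ranges of Grin2a and Grin2c overlapped between all classes. Grin2d, with means of 2.51 ± 0.741, 1.27 ± 0.707 and 1.29 ± 1.55 CPM in ROS+, ROS++ and ROS+++, did not pass any test and shares 9.66% of its exon bases with an antisense gene.

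Grin2 genes were also compared with each other per kilobase. Grin2b held 81.8% ± 6.64 of the summed Grin2 level per kb in ROS+, 66.1% ± 14.4 in ROS++ and 22.3% ± 6.57 in ROS+++, and Grin2a held 8.30% ± 3.40, 11.7% ± 11.2 and 29.4% ± 20.2. For Grin2b the ROS+++ range of 14.4% to 30.3% lay below the ranges of the other classes. For Grin2a the ranges overlapped, and its own level did not pass between ROS+ and ROS+++ (0.10 ± 0.52, adjusted p = 0.88). In ROS+++ the Grin2 gene with the highest mean per kb was Grin2c, at 0.906 ± 0.841 CPM per kb. Grin2a held 0.464 ± 0.241 and Grin2b 0.385 ± 0.109 CPM per kb in that class.

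Delta receptor subunits bind glycine or serine and organise synapses through partners in the cleft. Grid1 (ENSMUSG00000041078, chr14:34820108-35583379, plus strand) stood at 37.8, 32.9, 32.6, 42.7 and 31.2 CPM in the 5 ROS+ libraries. It held 18.8, 51.4, 39.6, 27.9 and 44 CPM in the 5 ROS++ libraries and 2.48, 2.75, 3.43 and 6.22 CPM in the 4 ROS+++ libraries. ROS+ and ROS++ overlapped (-0.04 ± 0.29, adjusted p = 0.939) and each ROS+++ library lay below both, 9.77-fold lower in mean than ROS++ (-2.96 ± 0.31, adjusted p = 1.19e-06).

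The 4 listed metabotropic glutamate genes moved in both directions. Grm5, of the group that couples to calcium release, fell, Grm3 and Grm7, of the groups that lower cyclic AMP, rose, and Grm2, which is of the same group as Grm3, fell. Grm5 (ENSMUSG00000049583, chr7:87584168-88134907, plus strand) stood at 77.5, 78.6, 63.7, 90.2 and 52.4 CPM in the 5 ROS+ libraries. It held 25.3, 78.1, 56.8, 55.9 and 119 CPM in the 5 ROS++ libraries and 20.5, 1.62, 0.238 and 8.34 CPM in the 4 ROS+++ libraries. ROS+ and ROS++ overlapped (-0.25 ± 0.60, adjusted p = 0.793), and the ROS+++ libraries lay below both, with a change of -3.84 ± 0.64 (adjusted p = 9.97e-05) from ROS+. The 1st and 3rd ROS+++ libraries were its highest and lowest, and without the one or the other this change was -4.53 and -3.16, and that from ROS++ to ROS+++ was -4.28 and -2.91 in place of -3.58.

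Grm3 (ENSMUSG00000003974, chr5:9485541-9725170, minus strand) stood at 5.10, 3.31, 2.45, 5.93 and 3.61 CPM in the 5 ROS+ libraries. It held 72.8, 45.6, 54.7, 77.6 and 33.1 CPM in the 5 ROS++ libraries and 181, 148, 134 and 187 CPM in the 4 ROS+++ libraries. Grm3, the group II receptor of astrocytes as well as neurons, had no overlap between any 2 classes. Its mean rose 13.9-fold from ROS+ to ROS++ and 39.9-fold from ROS+ to ROS+++, the latter being the largest change of any member, at 5.04 ± 0.27 (adjusted p = 7.28e-11). The steps were 3.49 ± 0.26 (adjusted p = 1.59e-08) and 1.55 ± 0.27 (adjusted p = 0.000204). Grm2 had means of 4.49 ± 1.57, 0.382 ± 0.483 and 0.856 ± 1.42 CPM in ROS+, ROS++ and ROS+++ and fell at the first step (-2.00 ± 0.39, adjusted p = 0.000693), with 2 ROS++ and 2 ROS+++ libraries at or under 3 reads and the 4th ROS+++ library at 2.99 CPM, inside the ROS+ range. An antisense gene shares 9.6% of the exon bases of Grm2.

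Grm7 (ENSMUSG00000056755, chr6:110645581-111567230, plus strand) stood at 10, 13.3, 7.89, 13 and 16.9 CPM in the 5 ROS+ libraries. It held 14.2, 14.7, 15.5, 21.9 and 4.20 CPM in the 5 ROS++ libraries and 64.5, 58.7, 44.6 and 37.1 CPM in the 4 ROS+++ libraries. Grm7, a presynaptic receptor of low glutamate affinity in neurons, overlapped between ROS+ and ROS++ (0.08 ± 0.34, adjusted p = 0.885), and all 4 ROS+++ libraries lay above every library of the other classes. It was 4.19-fold higher in ROS+++ than in ROS+ (1.99 ± 0.37, adjusted p = 0.000156) and 3.63-fold higher than in ROS++ (1.91 ± 0.37, adjusted p = 0.000485). Per kilobase, Grm3 was the highest of all members in ROS+++ at 53.4 ± 8.42 CPM per kb, followed by Gria2 at 8.83 and Grm7 at 8.71, which did not differ beyond their spread. Grm3 held 11.5% ± 2.63 of the summed level per kb of the 4 listed Grm genes in ROS+, 66.2% ± 13.8 in ROS++ and 84.7% ± 3.07 in ROS+++.

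Cell type markers moved along with these members. Of the 9 mural markers 9 were called higher in ROS++ and in ROS+++ than in ROS+, and 7 from ROS++ to ROS+++. Of the 10 glial markers 9 were called higher in either class than in ROS+, and 1 was called lower in ROS+++ than in ROS+. From ROS++ to ROS+++ 0 glial markers were higher and 4 lower. Over all genes tested, 16.4% were higher in ROS++ and 19.2% in ROS+++ than in ROS+, and 9.89% were higher in ROS+++ than in ROS++. The 14 members that fell at the second step alone did so beside markers of more than 1 cell type. Myelinating oligodendrocyte markers fell for 0 of 5 genes at the first step, where 2 rose, and for 5 of 5 at the second. The second-step calls of the 2 that had risen each held in 14 of 26 alternatives. Intermediate progenitor and cycling markers fell for 0 of 4 and 4 of 4, and 2 of them rose at the first step. Of all genes tested, 13.2% were lower at the first step and 29.2% at the second. Oligodendrocyte precursor markers fell for 0 of 8 genes from ROS+ to ROS++ and for 7 of 8 from ROS++ to ROS+++, and 1 rose at each step. Pdgfra, the receptor that defines those precursors, had means of 1171 ± 200.2, 1157 ± 406 and 79.5 ± 92.4 CPM. Neuroblast markers fell for 10 of 10 genes at the first step and for 9 of 10 at the second. Dcx, a microtubule protein of newborn neurons, had means of 444 ± 62.4, 81.5 ± 25.3 and 3.17 ± 3.80 CPM. Of those 14 members, 9 were highest among the ROS+++ libraries in the 1st, with Gria4, Grik1, Grik3, Grin3a, Grm5 and Gabra3 among them. The other 5 (Gria3, Grid1, Gabra4, Gabrg1 and Gabbr2) were highest in the 4th. The 1st library had the highest neuroblast (466 CPM) and oligodendrocyte precursor (769 CPM) sums of that class, and the 4th came next with 245 and 619 CPM. How far these shifts in markers account for the receptor changes was not tested.

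**Figure D3:**
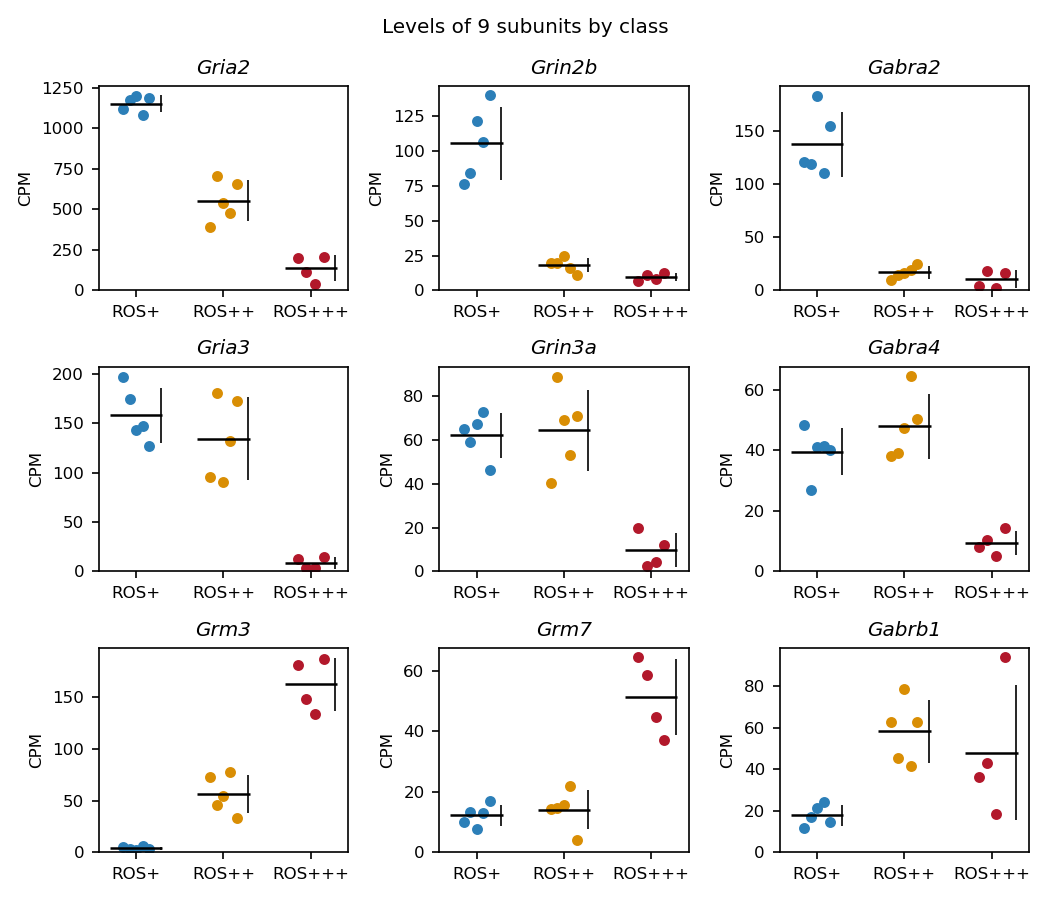
CPM of 9 subunits in every library (points) by ROS class, with the class mean (horizontal line) and 1 SD to each side (vertical line), on axes that start at 0. The top row shows members that fell from ROS+ to ROS++, the middle row members called lower only from ROS++ to ROS+++, and the bottom row the members that rose, with Grm3 between 134 and 187 CPM in ROS+++.

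Of the GABA receptor genes, 10 of 13 fell between ROS+ and ROS+++ and Gabrb1 alone rose. Over all genes tested, 40.0% were lower and 19.2% higher in that comparison. Alpha subunits set where a GABA-A receptor sits and how it responds to benzodiazepines. Gabra2, Gabra3, Gabra4 and Gabra5 were each called lower in ROS+++ than in ROS+, and no ROS+++ library reached the ROS+ range for any of them. Gabra2 (ENSMUSG00000000560, chr5:70957597-71095849, minus strand) stood at 121, 119, 184, 111 and 155 CPM in the 5 ROS+ libraries. It held 9.59, 14.3, 16.8, 19.5 and 25.4 CPM in the 5 ROS++ libraries and 4.34, 18.6, 1.91 and 16.8 CPM in the 4 ROS+++ libraries. Gabra2, a subunit prominent in the developing and adult hippocampus, was 8.07-fold lower in ROS++ than in ROS+ (-2.98 ± 0.42, adjusted p = 3.43e-05), with the classes apart. ROS++ and ROS+++ overlapped (-1.01 ± 0.45, adjusted p = 0.0835, not passed).

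Gabra3 (ENSMUSG00000031343, chrX:72432681-72656848, minus strand) stood at 21.4, 22.2, 23.6, 25.9 and 19.1 CPM in the 5 ROS+ libraries. It held 21.5, 15.7, 12.9, 8.84 and 43.3 CPM in the 5 ROS++ libraries and 1.34, 0, 0.0952 and 0.0787 CPM in the 4 ROS+++ libraries. Gabra3 overlapped between ROS+ and ROS++ (-0.32 ± 0.38, adjusted p = 0.572) and was lower in ROS+++, where 3 of the 4 libraries held at most 3 reads and the 1st held 1.34 CPM. Its change from ROS+ to ROS+++ was -4.18 ± 0.40 (adjusted p = 1.02e-07). Gabra4, an alpha subunit of receptors outside synapses in granule cells, had means of 39.5 ± 7.82, 47.9 ± 10.7 and 9.41 ± 3.92 CPM in ROS+, ROS++ and ROS+++, with a change of 0.27 ± 0.26 (adjusted p = 0.471) at the first step and -2.29 ± 0.27 (adjusted p = 4.87e-06) at the second. Gabra5, another extrasynaptic subunit, had means of 4.98 ± 3.30, 0.171 ± 0.325 and 0.182 ± 0.163 CPM in ROS+, ROS++ and ROS+++ and fell at the first step (-2.18 ± 0.38, adjusted p = 0.00031), with 4 of 5 ROS++ libraries at or under 3 reads.

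Of the summed level per kb of Gabra2, Gabra3, Gabra4 and Gabra5, Gabra2 held 56.2% ± 5.24 in ROS+ and 14.5% ± 2.83 in ROS++, ranges that did not overlap, and 38.1% ± 17.9 in ROS+++. Gabra4 held 20.5% ± 3.90, 52.7% ± 12.0 and 55.1% ± 13.2.

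Beta subunits carry the GABA binding site together with alpha and anchor the receptor. Gabrb1, the beta gene that rose, is given in full after its levels were seen. Gabrb1 (ENSMUSG00000029212, chr5:71658113-72149037, plus strand) stood at 11.8, 17, 21.4, 24.5 and 14.4 CPM in the 5 ROS+ libraries. It held 62.9, 45.5, 78.8, 41.5 and 63 CPM in the 5 ROS++ libraries and 36.1, 42.9, 18.6 and 94.4 CPM in the 4 ROS+++ libraries. It was 3.27-fold higher in ROS++ than in ROS+ without overlap (1.66 ± 0.33, adjusted p = 0.000914) and 2.69-fold higher in ROS+++ (1.19 ± 0.35, adjusted p = 0.00732), where 1 of the 4 libraries, the 3rd at 18.6 CPM, lay within the ROS+ range. Gabrb2, another beta gene, fell at both steps (-1.59 ± 0.34, adjusted p = 0.00181 and -1.74 ± 0.36, adjusted p = 0.00102), with means of 13.1 ± 3.87, 3.91 ± 2.39 and 0.369 ± 0.169 CPM in ROS+, ROS++ and ROS+++. Of the level per kb of Gabrb1 and Gabrb2 together, Gabrb1 held 38.7% ± 7.88 in ROS+, 87.4% ± 5.91 in ROS++ and 97.8% ± 1.48 in ROS+++, and the 3 ranges did not overlap.

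Gamma subunits tie the receptor to synaptic scaffolds. Gabrg1 (ENSMUSG00000001260, chr5:70751047-70842617, minus strand) stood at 54.9, 104, 61.9, 69.2 and 52.1 CPM in the 5 ROS+ libraries. It held 39.3, 73.2, 37.4, 36.6 and 47.9 CPM in the 5 ROS++ libraries and 7.68, 11.5, 5.24 and 22.4 CPM in the 4 ROS+++ libraries. Gabrg1, a gamma subunit also found in glia, overlapped between ROS+ and ROS++ (-0.54 ± 0.31, adjusted p = 0.21) and fell from ROS++ to ROS+++ (-2.04 ± 0.33, adjusted p = 0.000103). Gabrg3 had means of 1.72 ± 2.21, 4.50 ± 3.33 and 1.39 ± 1.23 CPM in ROS+, ROS++ and ROS+++ and did not pass any test.

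GABA-B receptors work only as pairs of Gabbr1, which binds GABA, and Gabbr2, which brings the pair to the membrane. Gabbr1 (ENSMUSG00000024462, chr17:37045966-37075067, plus strand) stood at 30.6, 50.5, 29.6, 55.1 and 46 CPM in the 5 ROS+ libraries. It held 20.9, 47.1, 49.7, 38.3 and 38.2 CPM in the 5 ROS++ libraries and 27.2, 26.4, 20.1 and 36 CPM in the 4 ROS+++ libraries. Gabbr1 overlapped between all classes and did not pass any test, with a change of -0.59 ± 0.27 (adjusted p = 0.0687) from ROS+ to ROS+++. Gabbr2 (ENSMUSG00000039809, chr4:46662305-46991873, minus strand) stood at 12.6, 19.4, 9.41, 21.9 and 9.99 CPM in the 5 ROS+ libraries. It held 7.02, 17.9, 13.3, 5.83 and 19 CPM in the 5 ROS++ libraries and 3.96, 1.96, 3.00 and 4.49 CPM in the 4 ROS+++ libraries. Gabbr2 overlapped between ROS+ and ROS++ (-0.26 ± 0.37, adjusted p = 0.645), and its ROS+++ libraries lay below both, with a change of -1.55 ± 0.39 (adjusted p = 0.00454) from ROS++ to ROS+++ and of -1.81 ± 0.39 (adjusted p = 0.000757) from ROS+. Whether the 2 partners differ in their change was not tested.

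Among the GABA-A genes shown, 6 lie in 2 genomic clusters of subunit genes. On chromosome 5 (GRCm38 70751047 to 72149037) the order is Gabrg1, Gabra2, Gabra4, Gabrb1. Gabra2 fell at the first step, Gabrg1 and Gabra4 at the second, and Gabrb1 rose at the first. Gabra4 and Gabrb1 lie head to head on opposite strands and share 46 exon bases, 0.756% and 0.332% of their exons. On chromosome 7 (56716465 to 57510059) Gabra5 fell at the first step and Gabrg3 at neither. Whether neighbours differ in their change was not tested.

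**Figure D4:**
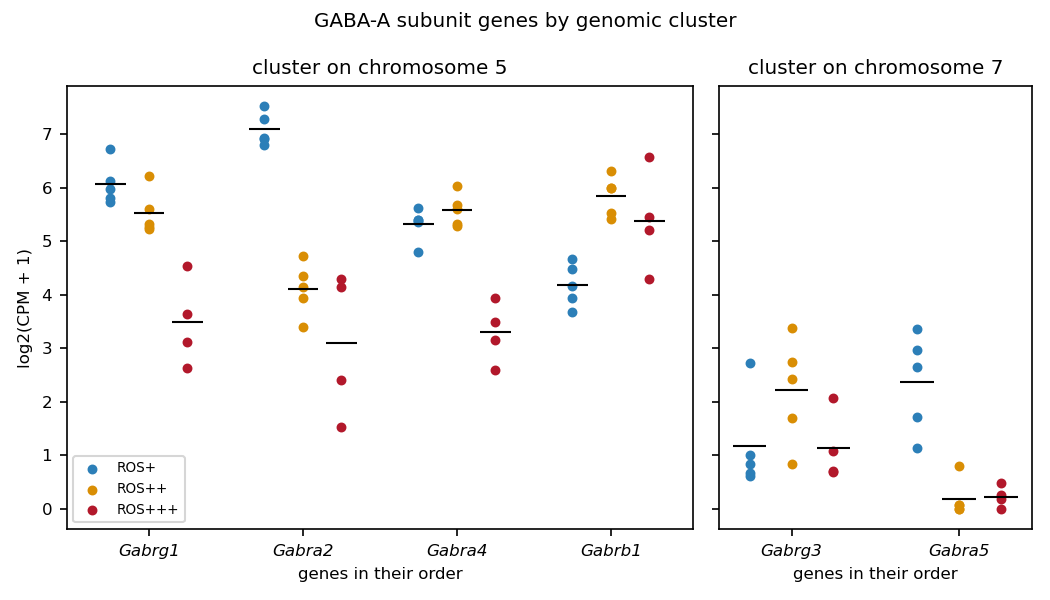
Levels of 6 clustered GABA-A genes as log2(CPM + 1), one panel per genomic cluster with genes in their order along the chromosome, points for libraries coloured by class and lines for class means. In the chromosome 5 panel Gabrb1 lies higher in ROS++ and ROS+++ than in ROS+, while Gabrg1, Gabra2 and Gabra4 are lowest in ROS+++.

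Most auxiliary and excitatory scaffold genes were also lower in ROS+++ than in ROS+. Of 15 auxiliary subunits of AMPA and kainate receptors, which steer their traffic and gating, 13 were lower and 0 higher in ROS+++ than in ROS+ (median change -2.81), where 40.0% of all genes tested were lower and 19.2% higher (median -0.44). Cnih3, a cornichon that carries AMPA receptors out of the endoplasmic reticulum, had means of 31 ± 3.51, 1.03 ± 1.73 and 0.536 ± 1.07 CPM. Gsg1l, another AMPA receptor partner, had means of 14.2 ± 3.72, 2.37 ± 1.49 and 0.223 ± 0.152 CPM. Both were called lower at the first step. Neto2, a kainate receptor partner, fell at the second step, with means of 29.3 ± 4.16, 32.4 ± 14.9 and 1.48 ± 1.12 CPM. Olfm2, a secreted AMPA receptor partner, did so too, with means of 287 ± 23.6, 233 ± 108 and 7.20 ± 10.2 CPM. The stargazin relative Cacng5 was the 1 auxiliary gene called higher in ROS++ than in ROS+, with means of 9.47 ± 4.07, 24.1 ± 7.73 and 15.8 ± 8.80 CPM. Cacng2, stargazin itself, fell at the first step, with means of 9.71 ± 2.95, 0.609 ± 0.782 and 0.763 ± 0.934 CPM.

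Of 23 genes for scaffolds of excitatory synapses, 15 were lower and 0 higher in ROS+++ than in ROS+ (median -1.64), 4 were lower in ROS++ than in ROS+, a share near the 13.2% of all genes, and 12 were lower in ROS+++ than in ROS++, against 29.2% of all genes. Nlgn1, an adhesion protein of excitatory synapses, had means of 193 ± 25, 146 ± 38.2 and 19.9 ± 4.14 CPM. Lrrtm3, which binds neurexins, had means of 151 ± 18.6, 106 ± 44.5 and 3.07 ± 2.56 CPM. Neither passed at the first step and both fell at the second. The scaffolds Shank1, with means of 31.2 ± 2.39, 8.59 ± 4.13 and 2.53 ± 1.64 CPM, and Shank2, with means of 41.5 ± 8.93, 13.9 ± 5.98 and 4.27 ± 3.17 CPM, were called lower at both steps. Among 15 genes for inhibitory scaffolds and GABA-A traffic, 9 were lower and 1 higher in ROS+++ than in ROS+ (median -0.66), against 1 lower (Trak2) and 0 higher in ROS++. Of all genes tested, 40.0% were lower and 19.2% higher in ROS+++ than in ROS+ (median -0.44), and 13.2% lower and 16.4% higher in ROS++. Gphn, the gephyrin that anchors GABA-A receptors, had means of 116 ± 18.7, 89.2 ± 17.2 and 29.5 ± 9.67 CPM. Nlgn2, the adhesion protein of inhibitory synapses, had means of 111 ± 20.8, 87.3 ± 19.1 and 31.8 ± 4.78 CPM. Both fell at the second step. Plcl1, a partner of GABA-A receptors in their traffic that is named for being the 1 that rose, had means of 25.8 ± 10.7, 46.3 ± 22.1 and 82.8 ± 33.1 CPM.

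Genes that make, clear and load the transmitters moved in both directions. Of all genes tested, 19.2% were higher and 40.0% lower in ROS+++ than in ROS+, and 16.4% higher and 13.2% lower in ROS++ than in ROS+. For glutamate, 7 of 16 were higher and 6 lower in ROS+++ than in ROS+ (6 and 2 in ROS++ against ROS+). The shares of lower glutamate genes were near those of all genes in both comparisons. Slc1a3, the glial glutamate transporter, had means of 401 ± 70.3, 2437 ± 265 and 1412 ± 540.2 CPM. Glud1, glutamate dehydrogenase, had means of 49.2 ± 6.83, 176 ± 57 and 184 ± 22.2 CPM, and Slc1a5, a carrier of neutral amino acids, means of 2.59 ± 1.45, 13.9 ± 4.42 and 49.8 ± 18.6 CPM. These 3 were higher in both other classes than in ROS+. Slc1a1, the neuronal glutamate transporter, fell from ROS++ to ROS+++, with means of 165 ± 35, 134 ± 21.3 and 8.36 ± 6.69 CPM. Slc38a3, a glutamine carrier, also fell there, with means of 111 ± 25.3, 124 ± 38.3 and 34.7 ± 17.6 CPM. For GABA, 5 of 9 were higher and 0 lower in ROS++ than in ROS+, and 4 higher and 2 lower in ROS+++. Slc6a12, a GABA and betaine carrier, had means of 0.0609 ± 0.0881, 4.21 ± 2.38 and 16.2 ± 6.41 CPM. Maob, an enzyme that astrocytes use to make GABA from putrescine, had means of 3.24 ± 2.11, 27.9 ± 14.4 and 39.9 ± 10.9 CPM. Both rose at the first step. Gad1, which makes GABA in neurons, fell at the second, with means of 38 ± 10.9, 24.6 ± 17.3 and 3.36 ± 2.55 CPM. Slc1a3 is also one of the glial markers, and Gad1 is also on the list of mature neuron markers, where 6 of 7 listed genes were lower in ROS+++ than in ROS+.

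Internal chloride sets whether GABA-A channels depolarise a cell. Slc12a2, the importer of chloride, rose at each step, with means of 70.8 ± 18.9, 222 ± 88.2 and 447 ± 49.3 CPM and changes of 1.57 ± 0.23 (adjusted p = 5.64e-05) and 1.10 ± 0.25 (adjusted p = 0.00185). Slc12a5, the exporter of mature neurons, had means of 1.97 ± 1.03, 1.35 ± 1.40 and 0.283 ± 0.0608 CPM and was called lower in ROS+++ than in ROS+ (-1.14 ± 0.40, adjusted p = 0.0194). It is named for its role and not by rank. Of the 14 genes for chloride and bicarbonate handling, 3 were higher and 6 lower in ROS+++ than in ROS+, shares near those of all genes (19.2% and 40.0%). Car2, carbonic anhydrase, rose at the first step, with means of 23.7 ± 38.1, 344 ± 257 and 323 ± 100.2 CPM. Clcn3, a chloride and proton exchanger, fell at the second, with means of 212 ± 17, 178 ± 43.7 and 61.2 ± 9.33 CPM, as did Slc4a10, a bicarbonate carrier, with means of 65.3 ± 12, 40.1 ± 16.9 and 2.94 ± 3.90 CPM.

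Downstream of the receptors, 5 of 26 genes for calcium and CREB signalling were higher and 11 lower in ROS+++ than in ROS+ (median -0.35), shares that lie near those of all genes tested (19.2% and 40.0%, median -0.44). Camk2d, a calcium-dependent kinase, rose at both steps, with means of 28.1 ± 8.27, 95.4 ± 22.3 and 166 ± 17.7 CPM. Of the calmodulin genes, Calm2 fell at the first step, with means of 1597 ± 83, 958 ± 128 and 986 ± 136 CPM, and Calm3 at the second, with means of 189 ± 18.4, 182 ± 17.4 and 65.5 ± 5.33 CPM. Of 16 activity-dependent transcripts, 8 were higher and 6 lower in ROS+++ than in ROS+, and 6 higher and 2 lower in ROS++ than in ROS+, where 16.4% of all genes were higher and 13.2% lower. Fos, a transcription factor gene, had means of 183 ± 44.1, 947 ± 418 and 5046 ± 1184 CPM. Its relative Fosb had means of 16.8 ± 6.83, 79.1 ± 39.2 and 744 ± 67.1 CPM, and the nuclear receptor gene Nr4a1 means of 55.2 ± 13.8, 88 ± 26.9 and 422 ± 135 CPM. All 3 rose from ROS++ to ROS+++. These are immediate early genes, which synaptic activity induces and which enzymatic dissociation of tissue is also known to induce, and these libraries hold no sample that was not dissociated. Among 3 genes outside the rule that were counted as another list, Gabrq was lower in ROS+++ than in ROS+ (-1.15 ± 0.47, adjusted p = 0.041). The Gabrq call held in 15 of 25 alternatives and was lost with each of the other scalings, with changes from -3.97 to -0.40 over all alternatives. Grina and Glrb did not pass any test.

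**Figure D5:**
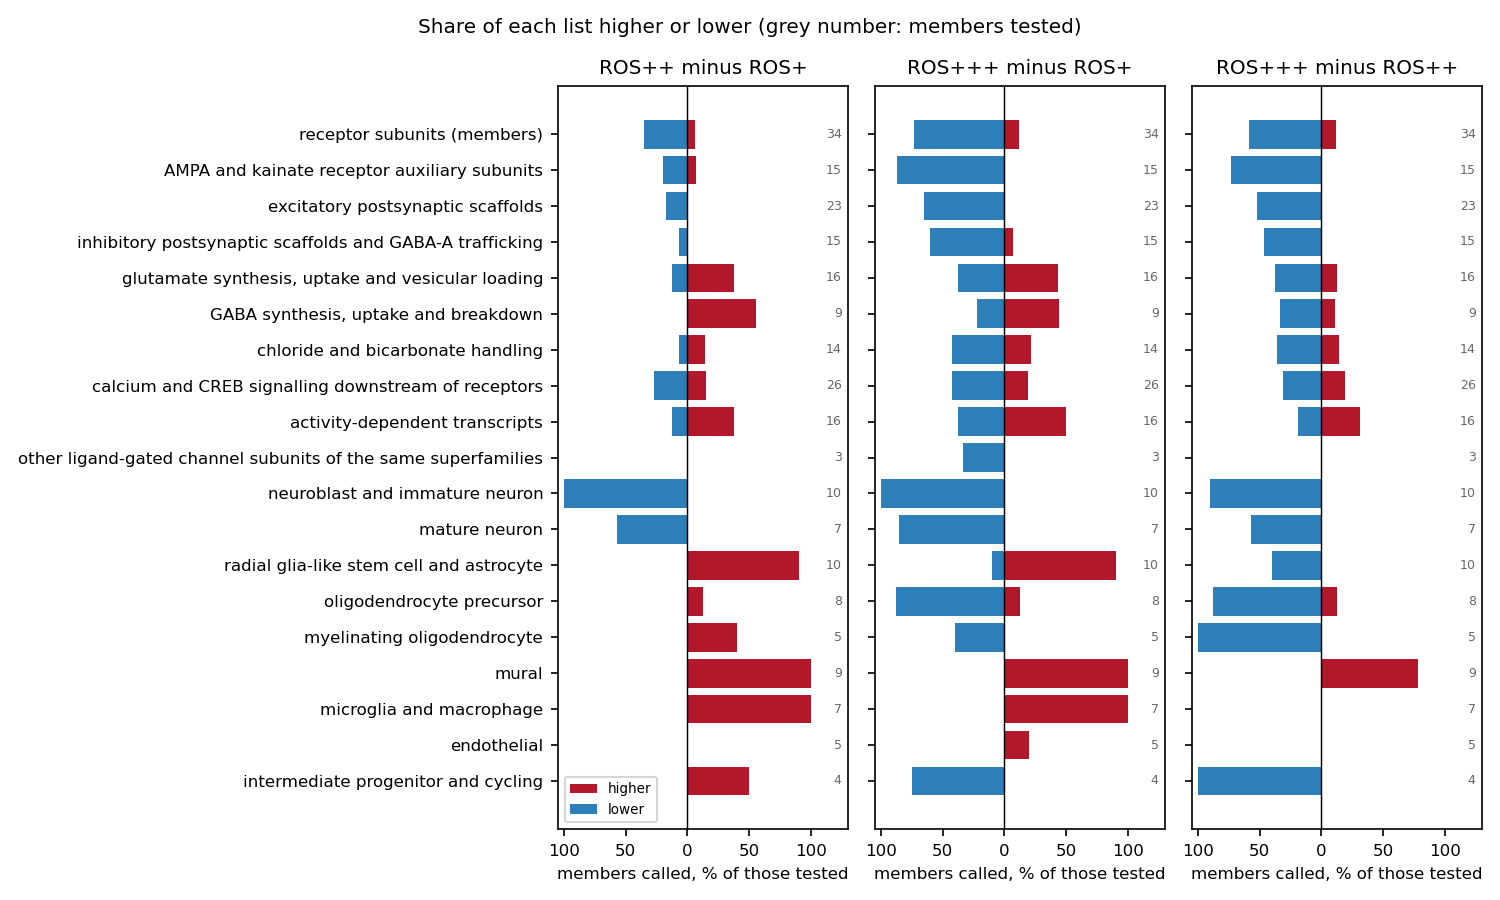
Percent of the tested genes of each list called higher (red, to the right) or lower (blue, to the left) in each comparison, for the receptor subunits, their partner lists and cell type marker lists, with the number tested in grey. Receptor subunits, auxiliary subunits and scaffolds lie mostly to the left in ROS+++ against ROS+, where 13 of 15 auxiliary genes were lower, and mural markers lie wholly to the right, with 9 of 9 higher.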

How the data were processed

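The deposited table holds log2 values per gene, made by the authors with STAR, edgeR and the mm10 build, per the submitters' processing notes. The versions were not given in the sources used here. Its values are log2 CPM with a prior count, per the values themselves, and library totals taken from their steps turned 100% of them into whole reads (within 0.001 of a read), from which CPM was computed. All 14 library columns were matched by title and no sample column was left out. The authors' table listed no gene under 82 reads over all libraries. Of 15119 gene IDs, 15065 had a symbol in GENCODE M21.

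Genes at 1 CPM or more in at least 4 libraries were kept, which removed 17 genes and left 15102 and all 34 members. Class means of log2(CPM + 1) were compared with limma 3.58.1 in R 4.3.3 (trend, robust moderation, statmod 1.5.0), fitted on all 14 libraries with 11 residual degrees of freedom and Benjamini-Hochberg adjustment. The planned count test was replaced because the deposited unit is log2, and limma-voom on the recovered reads was one of 26 alternatives, with other scalings, pseudocounts of 0.25 and 5 CPM, filters, fits and libraries left out. The script was tested on simulated data. Fold values are ratios of mean CPM, and levels per kb use the union of exons. Shares and sums carry SDs over libraries. A count of 3 reads was taken as the floor.

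Values in every library are given, in each receptor type, for the member with the highest mean CPM over the class means and the member with the largest called change, and from other lists for up to 2 members per comparison with the smallest adjusted p. Members and lists were chosen with earlier results of these data known. Cspg4, Slc1a3, Slc1a2, Gad1, Gad2, Camk2a, Slc17a7, Homer1 and Shisa7 each stand on 2 lists. Counting is not stated to use strand. Outside this rule, Cacng5, Plcl1, Slc12a5, Pdgfra, Dcx and Cspg4 were named for their role or after their values were seen. Results for a few single genes are not reported here, among them some that this rule would name, and they stay in the counts over members and lists.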

Additional observations from a re-analysis of the deposited data

Results flagged for a closer look

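Single libraries stood apart from the rest of their class for 11 of 90 groups of values (30 members in 3 classes), by the gap to the nearest library relative to the range of the class. Chance flags about 1 in 20 such groups where values are normally distributed, which CPM near the floor need not be. The number of flags is therefore not read as an excess. Among subunits of glutamate receptors, Gria1 was low in the 3rd ROS+++ library at 1.81 CPM, where the nearest other library held 16.7. Grik3 was high in the 1st ROS+++ library at 5.30 CPM (nearest 0.63), and Grin2d in the 4th at 3.62 (nearest 0.573). Grin2c was high in the 4th ROS+ library at 3.11 CPM (nearest 0.288). Grm2 was high in the 2nd ROS++ library at 1.23 CPM (nearest 0.256) and in the 4th ROS+++ library at 2.99 (nearest 0.191).

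Among GABA-A subunits, Gabra3 was high in the 1st ROS+++ library at 1.34 CPM (nearest 0.0952). Gabra5 was high in the 2nd ROS++ library at 0.751 CPM (nearest 0.0524). Gabrb2 was high in the 2nd ROS+ library at 19.8 CPM (nearest 12.7) and in the 5th ROS++ library at 8.08 (nearest 3.42), and Gabrg3 in the 3rd ROS+ library at 5.66 (nearest 1.02).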

How the results depend on the processing

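Numbers of members called stayed within 1.5 times of the reported ones in each alternative: 11 to 16 between ROS+ and ROS++, 26 to 30 between ROS+ and ROS+++, 22 to 26 between ROS++ and ROS+++, and 26 to 32 over the 3 classes. Of 67 called changes, 59 were called in every alternative that tested them, 8 were lost in at least one, and 0 changed sign. Of 35 changes not called, 10 were called in at least one alternative and 14 changed sign. Levels moved by over 1 SD for 6 of 153 combinations of level and scaling, among them Gria2 in ROS+ and Grm3 in ROS+++. The labels give no replicate numbers that the classes share. Titles carry library numbers, and a fit with sets of consecutive numbers as a block called 15, 29 and 25 members in the 3 comparisons, in the order above, and 31 over the classes. Under the block Grik5 lost its call between ROS+ and ROS+++ (adjusted p = 0.0659), and Gabbr1 there (adjusted p = 0.0177) and Gabra2 between ROS++ and ROS+++ (adjusted p = 0.0294) gained one. Deviations from class means correlated over genes by -0.022 to 0.231 (median 0.084) in 13 pairs of libraries of a set. In 52 other pairs they correlated by -0.15 to 0.161 (median -0.009). Correlations over 0.1 were found in 3 of the 13 and 2 of the 52 pairs, and the main fit had no block for these sets. These limma values with Benjamini-Hochberg adjustment say nothing of shared animals. Changes of members near 1 CPM depend on the pseudocount, and the 4th ROS+++ library, with the fewest reads, has the highest floor.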
